A study of Homo sapiens with 6 samples.

Results

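Semaphorins, SLITs and netrins are the classical guidance cues of axons and migrating cells, and 52 genes of these families and their receptors were followed here during the induction of neural crest from human embryonic stem cells. The members were chosen by symbol from 23284 genes in the table, with earlier results of these data known. They are semaphorins of classes 3 to 7, plexins, NRP1 and NRP2, SLIT1 to SLIT3, ROBO1 to ROBO4, netrins, UNC5A to UNC5D, DCC and FLRT1 to FLRT3. The series holds 6 libraries of poly-adenylated RNA from WA01, an established human embryonic stem cell line, wildtype in every group. They form 3 groups of 2, labelled ES for the embryonic stem cells of day 0, preNC for the pre-neural crest cells of day 3 and NC for the neural crest cells of day 5. Differentiation used 3 µM CHIR99021, a GSK3 inhibitor that activates WNT signalling, on Matrigel at 20000 cells per cm2, and Y-27632, a ROCK inhibitor, was present at 10 µM for the first days, per the labels. The same protocol is given for the day 0 libraries, so it does not show which cells were exposed, and all groups come from 1 cell line.

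Semaphorins signal through plexins, and most of the secreted class 3 proteins need a neuropilin as co-receptor. SLITs bind ROBO receptors and mostly repel. Netrins attract cells through DCC and repel them through UNC5 receptors, which also bind FLRT proteins. In the embryo, neural crest cells carry neuropilins, plexins and ROBO receptors, and semaphorin and SLIT signals around them help to shape their migration streams.

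The deposited table gives 1 FPKM value (a count of sequenced fragments corrected for how long the transcript and how deep the library is) for each gene in each group, with the 2 libraries combined, so no spread between libraries could be shown and their depth is unknown. A gene was tested where the authors' Cuffdiff run reported a test, and is called higher or lower where its q in the authors' deposited table is below 0.05. Behind each ± stands an implied standard error, which is the log2 ratio of the group FPKM values divided by the deposited test statistic. It does not always match the q beside it, because the deposited p differs from a normal p of the same statistic. For PLXND1 from day 3 to day 5, the q in the authors' deposited table is 0.0478, while the adjusted normal p is 0.137. The smallest q in the authors' deposited table is 0.000596 and is shared by 4078 tested results, so genes at that value cannot be ranked by it. Nothing says that the libraries of a group came from separate cultures, so these tests may measure technical spread alone. The 3 comparisons share their groups in pairs and are not independent. In bulk RNA, fewer cells of a type and less RNA per cell cannot be told apart.

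The labelled cell types were checked against lists of marker genes. Of 12 neural crest markers, 4, 9 and 12 reached an FPKM of 1 on days 0, 3 and 5, and their summed FPKM went from 32.3 and 30.4 to 308. FOXD3 (17.9, 0.876 and 15.4) and ETS1 (7.27, 1.11 and 6.14) fell by day 3 and were not called between day 0 and day 5. They made up most of the day 0 sum. The other neural crest markers were called higher on day 5 than on day 0. The 6 pluripotency markers summed to 2387, 1084 and 590.0 on the 3 days, with POU5F1 at 1087, 85.3 and 9.40. POU5F1, NANOG, TDGF1 and DNMT3B were called lower on day 5 than on day 0, whereas SOX2 and LIN28A were not. SOX2 was at 203, 341 and 129, and LIN28A, at 396, 555 and 419, made up most of the day 5 sum. Guidance genes are also active in other cell types. Neuron markers summed to 210.3, 384 and 232, with 3, 6 and 5 of 11 at an FPKM of at least 1. TUBB3 made up 202, 292 and 136 of these sums. STMN2, ELAVL4, MAP2 and POU4F1 were called higher on day 5 than on day 0, and no neuron marker was called lower. Neural progenitor markers (6) summed to 131, 484 and 146, and glial markers (4) to 39.8, 35.6 and 29.4. Floor plate markers (6) summed to 1.01, 7.33 and 25.4, of which SPON1 made up 22.7 on day 5. SHH was listed at 0 on day 0 and stood at 0.0205 on day 5, and FOXA2 was listed at 0 on day 3. Endothelial markers (7) summed to 13.9, 25.9 and 17.7, of which TEK made up 12.2, 21.5 and 15.3, while PECAM1 and CDH5 did not exceed 0.0784 and 0.124 on any day. Mesendoderm markers (6) summed to 5.65, 4.29 and 3.34, with SOX17 listed at 0 on day 5. The part of these cell types in the results below was not tested.

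By day 3, pre-neural crest cells had more neuropilin, FLRT3 and class 5 semaphorin RNA and less UNC5A, UNC5B, SEMA4A and SEMA4B RNA than stem cells. Of 47 members tested, 14 rose and 12 fell, or 55.3% in all, against 20.6% of all tested genes (8.96% higher and 11.6% lower). The largest rise was that of FLRT3 and the largest fall that of UNC5A. The median log2 ratio of FPKM plus 1 was 0.08 over the tested members and 0.03 over the 16231 genes tested. Over all 52 members it was 0.07, which became 0.41 when members that stayed below an FPKM of 1 in both groups were left out. Centring on 12526 genes that reached an FPKM of 1 on both days (median log2 ratio 0.05, without the added 1) brought the 0.07 to 0.02. DCC, NTN3, ROBO4, SLIT3 and UNC5C were not tested in this step. When p is instead computed from the deposited test statistic as a normal variate (the normal p) and adjusted over all tests, 9 of the 26 calls are lost (PLXNA4, PLXNC1, ROBO2, SEMA3D, SEMA4A, SEMA4B, SEMA6A, SLIT2 and UNC5D).

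From day 3 to day 5, SLIT2, SLIT3, UNC5C, DCC, SEMA3A and SEMA3F rose, and the class 5 semaphorins, NTN1 and NTNG2 fell. Of 49 members tested, 12 rose and 9 fell, 42.9% in all, against 12.6% of all tested genes (5.93% higher and 6.68% lower). The median log2 ratio of FPKM plus 1 was -0.08 over the tested members and -0.04 over the 15932 genes tested. Over all 52 members it was -0.04. Centring on 12675 genes that reached an FPKM of 1 on both days (median log2 ratio -0.06, without the added 1) turned it to 0.0188. With the added 1, the median of all 23284 genes was 0 and would not reverse the sign. NTN5, NTNG1 and ROBO4 were not tested. Under the normal p the calls of NTN4, PLXNB1, PLXND1, ROBO2 and SEMA3D are lost, and those of NTN4 and PLXND1 are also lost when p is adjusted over this comparison alone.

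Between day 0 and day 5, FLRT3, SEMA3C, UNC5C, SLIT3, DCC, NRP2 and SLIT2 were higher in neural crest cells, and UNC5A, UNC5B, SEMA4A, SEMA4B and SEMA6A were lower. Of 50 members tested, 13 rose (26.0%) and 7 fell (14.0%), 40.0% in all, against 27.0% of all tested genes (12.2% higher and 14.7% lower). The share that fell was thus near that of all tested genes. The median log2 ratio of FPKM plus 1 was 0.28 over the tested members and -0.01 over the 16409 genes tested. Over all 52 members it was 0.27, or 0.43 with a pseudocount of 0.1. PLXNA4 and ROBO4 were not tested. Under the normal p the calls of NRP1, NTN4, NTNG1, SEMA3A and SEMA3F are lost.

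**Figure D1:**
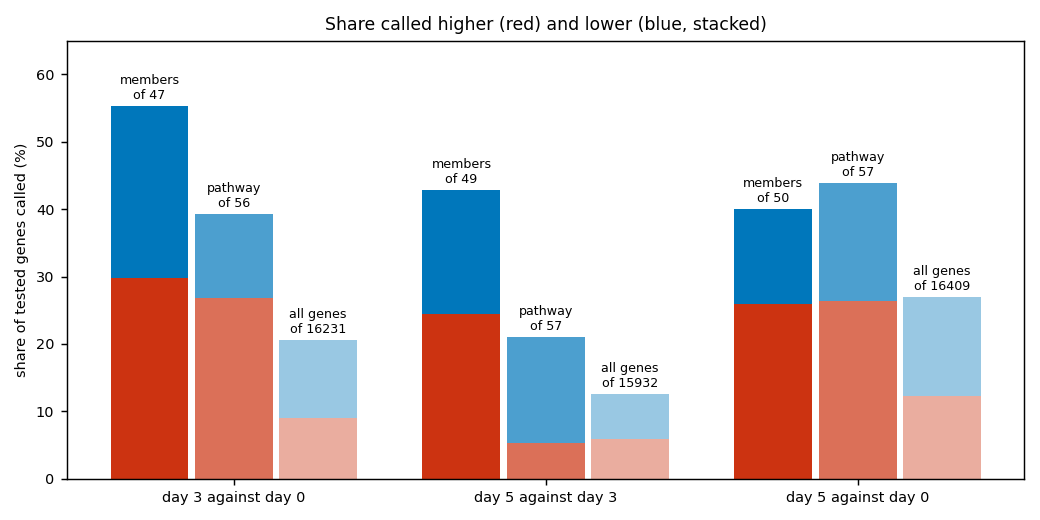
Share of tested genes called higher (red) or lower (blue, stacked) in each comparison, in percent, for the guidance members, the other guidance pathway genes and all genes, with the number tested above each bar. The members stand at 55.3%, 42.9% and 40.0%, and all genes at 20.6%, 12.6% and 27.0%.

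The sequence upstream of the members' starts was read from the RefSeq promoter table of GRCh38.p14, which held 43 of the 52 members with 74 starts. The 250 bases before each start had a median of 16 CpG dinucleotides for the members and 11 for all 35116 starts in the table. The sequences below belong to members with large rises and a single listed start, chosen after their values were seen. FLRT3 and NRP2 rose by day 3, and SLIT2 and UNC5C from day 3 to day 5. Capitals mark the CpG dinucleotides.
FLRT3, chr20:14337613-14337862, minus strand: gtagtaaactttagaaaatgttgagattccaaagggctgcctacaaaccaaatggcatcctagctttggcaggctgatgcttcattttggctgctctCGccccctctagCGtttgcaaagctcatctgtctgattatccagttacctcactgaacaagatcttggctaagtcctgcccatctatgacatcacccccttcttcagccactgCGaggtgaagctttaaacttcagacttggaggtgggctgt
NRP2, chr2:205682251-205682500, plus strand: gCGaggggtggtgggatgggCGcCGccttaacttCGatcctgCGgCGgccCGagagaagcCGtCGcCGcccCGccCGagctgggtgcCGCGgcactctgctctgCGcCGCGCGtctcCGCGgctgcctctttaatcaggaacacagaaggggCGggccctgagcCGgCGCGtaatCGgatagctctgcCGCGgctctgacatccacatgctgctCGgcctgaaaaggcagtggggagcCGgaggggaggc
SLIT2, chr4:20251655-20251904, plus strand: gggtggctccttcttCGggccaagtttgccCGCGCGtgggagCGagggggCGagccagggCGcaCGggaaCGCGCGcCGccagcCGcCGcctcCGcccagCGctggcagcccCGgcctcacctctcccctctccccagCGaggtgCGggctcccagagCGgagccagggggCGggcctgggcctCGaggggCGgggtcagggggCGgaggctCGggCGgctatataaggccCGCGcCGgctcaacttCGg
UNC5C, chr4:95548974-95549223, minus strand: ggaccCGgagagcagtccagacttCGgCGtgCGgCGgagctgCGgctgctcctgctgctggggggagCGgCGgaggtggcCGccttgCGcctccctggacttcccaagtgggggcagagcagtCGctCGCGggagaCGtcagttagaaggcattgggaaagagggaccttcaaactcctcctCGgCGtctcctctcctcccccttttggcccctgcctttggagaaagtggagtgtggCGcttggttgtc
The FLRT3 window holds 3 CpG dinucleotides at a GC content of 47.6%, while NRP2 has 29, SLIT2 30 and UNC5C 17, at 70%, 77.2% and 65.6%. FLRT3 and NRP2, which both rose by day 3, thus differ in base composition here.

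Since CHIR99021 activates WNT signalling, the same windows were searched on both strands for a TCF/LEF motif, CTTTGNN with A or T at each N. A match stood in 10 of the 74 member starts (13.5%) and in 11.96% of all starts in the table. None of the 4 windows above holds one. The 10 members with a match were not all highest on the same day. The value was highest on day 0 for 2 (SEMA4G and SEMA6D), on day 3 for 4 (PLXNA1, PLXNA2, PLXNB1 and SEMA3E) and on day 5 for 4 (FLRT2, PLXNC1, SEMA3F and SLIT1). SEMA4G, PLXNA1, FLRT2 and SLIT1 were not called in any comparison, so their day of the highest value is uncertain. It is also uncertain for PLXNB1, PLXNC1 and SEMA6D, whose highest day was not called against the second highest. The q values there were 0.586, 0.629 and 0.0998 in the authors' deposited table. PLXNA2, with 1 match, and SEMA3E, with 2 matches at 1 of its 2 starts, are shown as examples, picked among the members highest on day 3, and capitals now mark the matches.
PLXNA2, chr1:208244385-208244634, minus strand: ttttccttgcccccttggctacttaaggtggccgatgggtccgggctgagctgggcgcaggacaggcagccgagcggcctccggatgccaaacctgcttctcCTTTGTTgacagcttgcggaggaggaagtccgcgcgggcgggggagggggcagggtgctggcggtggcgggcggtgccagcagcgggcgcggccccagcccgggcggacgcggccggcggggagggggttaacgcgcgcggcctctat
SEMA3E, chr7:83641432-83641681, minus strand: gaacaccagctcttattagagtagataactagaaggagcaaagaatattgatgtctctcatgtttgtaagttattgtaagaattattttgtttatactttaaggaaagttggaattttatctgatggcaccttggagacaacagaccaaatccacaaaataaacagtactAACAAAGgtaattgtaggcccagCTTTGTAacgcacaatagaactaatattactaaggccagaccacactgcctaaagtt
The PLXNA2 match begins 148 bases before the start, and the SEMA3E matches 80 and 57 bases before it. A match is a description of these letters, and binding of a factor was not measured.

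Among the 52 members, 28, 35 and 37 reached an FPKM of 1 on days 0, 3 and 5. The value was highest on day 0 for 13 members, on day 3 for 21 and on day 5 for 18. Of all genes in the table, 44.3%, 25.4% and 30.3% were counted on those days. Genes at 0 on all days are counted on day 0 there, which inflates its share. Among the 14573 genes at an FPKM of at least 1 on any day, the shares were 37.3%, 30.3% and 32.4%. After rescaling without small RNA genes, an alternative chosen after seeing the data, the counts of members were 11, 20 and 21, so that day 5 and not day 3 led. Of the 41 members at an FPKM of at least 1 on any day, 43.9% were highest on day 3, against 30.3% of the 14573 genes of the table at that level. FPKM is scaled to transcript length, so levels can be set side by side between genes. On day 0 the order was led by SEMA6A (39.9), PLXNB2 (31.1), SEMA4C (26.5), SEMA6B (22.8) and ROBO1 (21.8). On day 3 it was led by NRP2 (66.2), SEMA4C (42.4), SEMA5B (34.6) and PLXNB2 (33.5), and on day 5 by NRP2 (50.3), PLXNB2 (35.5), SEMA4C (35.1) and SEMA3F (30.6). With 1 value per group, neighbours in these orders could not be told apart by a spread. Another 11 members stayed below 1 on all 3 days: DCC, FLRT1, NTN3, NTN4, NTN5, NTNG1, PLXNA4, PLXNB3, ROBO2, ROBO4 and SEMA3D.

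**Figure D2:**
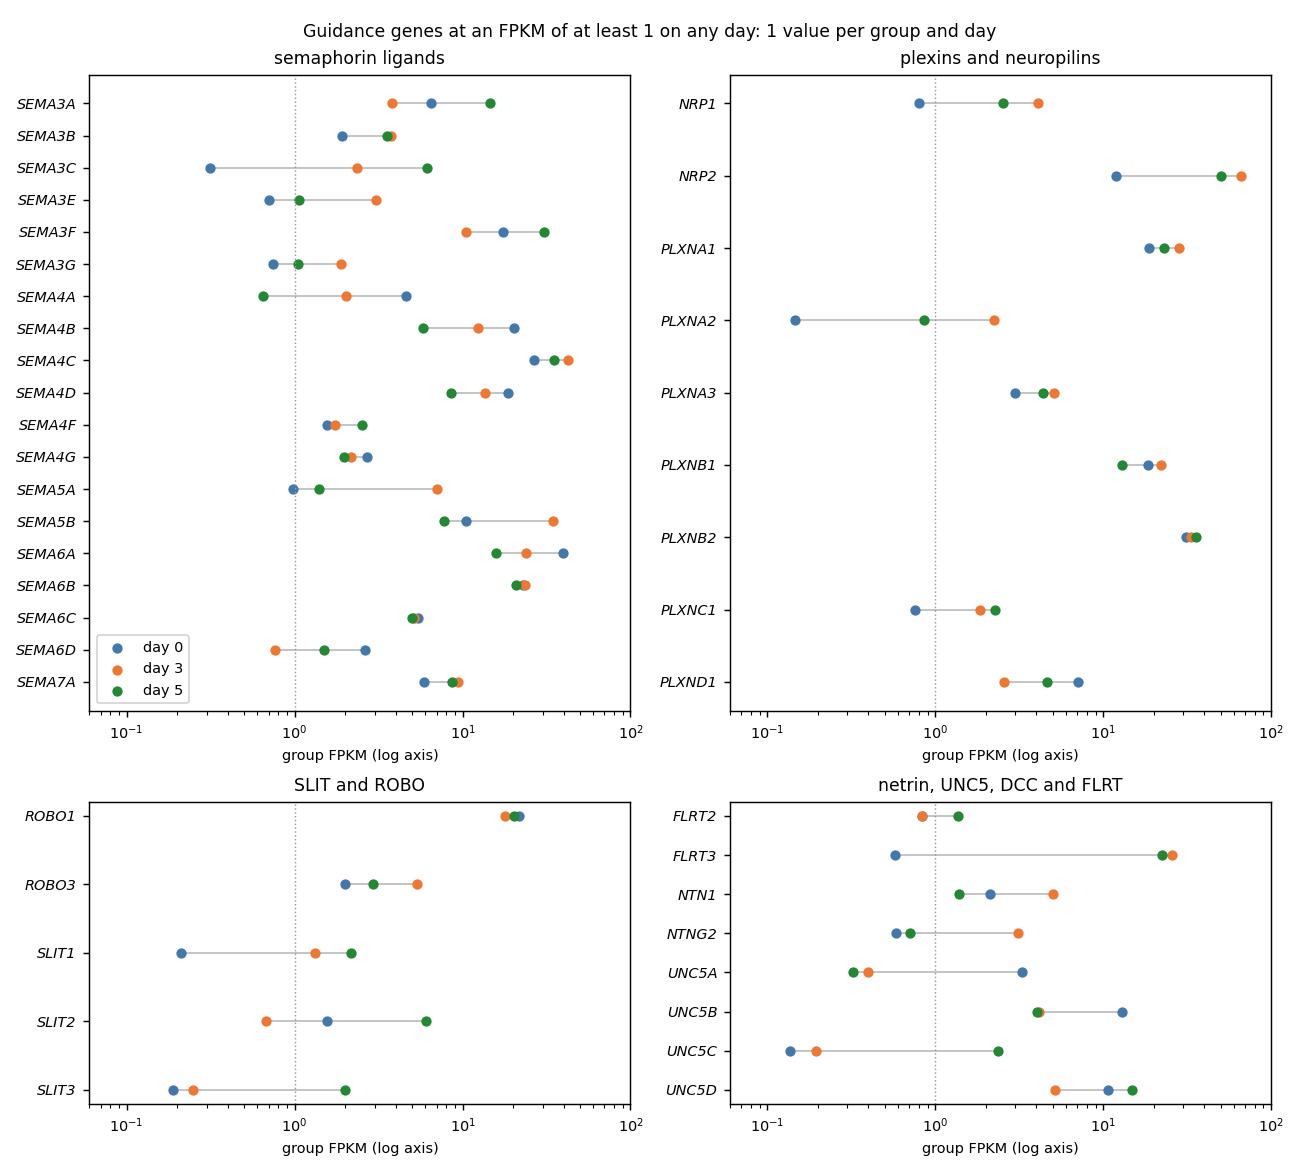
Group FPKM on a log axis for the 41 members that reached an FPKM of 1 on any day, with day 0 in blue, day 3 in orange and day 5 in green, in 4 panels by role. FLRT3, UNC5C, SEMA3C and PLXNA2 span wide ranges, whereas PLXNB2, SEMA6B and SEMA6C lie close together on all days.

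The semaphorin ligands are described by class, and the day of the highest value varied within classes 3, 4 and 6. Class 3 semaphorins are secreted. Their 7 genes summed to 28.3, 25.5 and 57.8 FPKM on days 0, 3 and 5, and 3 rose, 1 fell and 3 were not called by day 3, against a background of 20.6% called among all tested genes. From day 3 to day 5, 4 rose, 1 fell and 2 were not called, against 12.6%.

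SEMA3F (chromosome 3, 50192848 to 50226508 on hg19), the main ligand of NRP2, had FPKM values of 17.4, 10.4 and 30.6 on days 0, 3 and 5. Day 5 was the highest of the 3 days, and the lower value of day 3 was not called against day 0 (log2 -0.74 ± 0.32, q = 0.0581 in the authors' deposited table). It rose 2.93-fold from day 3 to day 5 (log2 1.55 ± 0.33), at the smallest q. SEMA3A (chromosome 7, 83587659 to 83824217), the prototype repellent and a ligand of NRP1, took a similar path at lower level, with 6.48, 3.801 and 14.6. It rose 3.84-fold from day 3 to day 5 (log2 1.94 ± 0.46), whereas its first step was not called (q = 0.0508, the authors' deposited table). Day 5 stood above day 0 for both, 1.76-fold for SEMA3F and 2.25-fold for SEMA3A, with q values of 0.0204 and 0.0011 in the authors' deposited table.

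SEMA3C, a cue of crest cells that enter the cardiac outflow tract, was the member of its class with calls in all 3 comparisons. Its FPKM was 0.314, 2.35 and 6.17. The rise was 7.49-fold by day 3 (log2 2.90 ± 0.70) and a further 2.62-fold by day 5 (log2 1.39 ± 0.49), 19.6-fold in all. SEMA3E, which signals through PLXND1 without a neuropilin, was instead highest on day 3, with 0.703, 3.05 and 1.07. It rose 4.34-fold and then fell 2.86-fold (log2 -1.52 ± 0.55), both at the smallest q. SEMA3G followed at 0.742, 1.88 and 1.04, with a call for its rise (q = 0.00812 in the authors' deposited table). SEMA3D stayed low at 0.723, 0.244 and 0.818 and was lowest on day 3, with a fall and a rise that were both called. SEMA3B, at 1.91, 3.73 and 3.57, was not called in any comparison.

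The genes SEMA3C, SEMA3E, SEMA3A and SEMA3D lie in that order on chromosome 7. SEMA3E and SEMA3A are 309 kb apart and SEMA3A and SEMA3D 801 kb apart, with no other gene of the table between either pair. SEMA3E was at its highest on day 3, when SEMA3A and SEMA3D were at their lowest, while SEMA3C rose at each step. The fall of SEMA3A by day 3 was not called (q = 0.0508 in the authors' deposited table). SEMA3D stayed below an FPKM of 1, and its calls for the fall and the rise are lost under the normal p. On chromosome 3, SEMA3F and SEMA3B are 78.5 kb apart with 3 genes between them.

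Class 4 to 7 semaphorins are held at the cell surface by a transmembrane part or, for SEMA7A, a lipid anchor. Of the 6 class 4 genes, 2 fell by day 3, 2 fell from day 3 to day 5 and 3 were lower on day 5 than on day 0, where 11.6%, 6.68% and 14.7% of all tested genes were called lower. SEMA4B had an FPKM of 20.4, 12.3 and 5.85 on the 3 days, and SEMA4A of 4.58, 2.02 and 0.648. Both fell at each step, and from day 0 to day 5 SEMA4B fell 3.48-fold (log2 -1.80 ± 0.42) and SEMA4A 7.07-fold (log2 -2.82 ± 0.58), at the smallest q. SEMA4D, a PLXNB1 ligand, went from 18.6 through 13.7 to 8.58, and the whole span was called (log2 -1.12 ± 0.40, q = 0.00157 in the authors' deposited table). SEMA4C, the highest of its class at 26.5, 42.4 and 35.1, was not called, with a q of 0.0555 for the first step in the authors' deposited table. SEMA4F (1.55, 1.73 and 2.50) and SEMA4G (2.70, 2.17 and 1.97) were also not called. SEMA4G shares its interval with MRPL43, at 49.6 to 62.2, and its value is uncertain.

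The 2 class 5 semaphorins, which carry thrombospondin repeats, were both highest on day 3. SEMA5B (chromosome 3, 122628040 to 122747452) was at an FPKM of 10.4, 34.6 and 7.77. SEMA5A was lower, at 0.976, 7.001 and 1.40. SEMA5B rose 3.32-fold (log2 1.73 ± 0.40) and fell 4.45-fold (log2 -2.16 ± 0.35), and SEMA5A rose 7.18-fold (log2 2.84 ± 0.43) and fell 4.99-fold (log2 -2.32 ± 0.46), each step at the smallest q. Day 5 and day 0 did not differ detectably for SEMA5A or SEMA5B, with q values of 0.28 and 0.343 in the authors' deposited table.

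Class 6 semaphorins act on A plexins. SEMA6A, the highest of all members on day 0, went from 39.9 to 24.0 and 15.9, which made it 2.51-fold lower on day 5 (log2 -1.33 ± 0.41, at the smallest q). SEMA6D had an FPKM of 2.64, 0.761 and 1.502 and fell 3.47-fold by day 3 (log2 -1.79 ± 0.53). SEMA6B (22.8, 23.4 and 20.8) and SEMA6C (5.45, 5.13 and 4.995) were not called, with log2 ratios within 0.17 of 0 in every comparison. SEMA7A was at 5.90, 9.38 and 8.64 without a call.

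On the receptor side, the summed FPKM of the 9 plexins and 2 neuropilins was 92.8, 167 and 137 on days 0, 3 and 5. By day 3, 5 of the 11 rose, 1 fell and 5 were not called, where 8.96% of all tested genes rose and 11.6% fell. NRP2 (chromosome 2, 206547224 to 206662857), the co-receptor of SEMA3F with a CpG-rich start window, had FPKM values of 12.001, 66.2 and 50.3 and was the highest of the 52 members on days 3 and 5. It rose 5.51-fold by day 3 (log2 2.46 ± 0.43, at the smallest q), and the step to day 5 was not called. NRP1, the co-receptor of SEMA3A and of VEGF, was at 0.802, 4.11 and 2.52 and rose 5.12-fold by day 3 (log2 2.36 ± 0.68). NRP2 exceeded NRP1 15.0-fold on day 0, 16.1-fold on day 3 and 19.9-fold on day 5.

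A plexins are the signalling partners of neuropilins. PLXNA2 had the second largest rise by day 3, with an FPKM of 0.147, 2.25 and 0.852. It rose 15.3-fold (log2 3.93 ± 0.56) and fell 2.64-fold by day 5 (log2 -1.40 ± 0.48, q = 0.00242 in the authors' deposited table). PLXNA1, at 18.7, 28.4 and 23.2, stayed well above it and was not called, nor was PLXNA3 (3.00, 5.07 and 4.37). PLXNA4 did not exceed 0.354, with a call for the rise by day 3 (q = 0.0181 in the authors' deposited table).

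Of the B plexins, PLXNB2 was at 31.1, 33.5 and 35.5 without a call. PLXNB1, the SEMA4D receptor, was at 18.6, 22.2 and 12.9 and fell 1.72-fold from day 3 to day 5 (q = 0.0197 in the authors' deposited table). PLXNB3 stayed at 0.374 to 0.633. PLXNC1, the receptor of SEMA7A, was at 0.757, 1.84 and 2.27 and was 3.00-fold higher on day 5 than on day 0 (log2 1.59 ± 0.50). PLXND1, the SEMA3E receptor, ran the other way round from its ligand, at 7.05, 2.58 and 4.64. It fell 2.73-fold by day 3 (log2 -1.45 ± 0.33) and rose 1.80-fold by day 5 (log2 0.85 ± 0.38, q = 0.0478 in the authors' deposited table).

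SLIT ligands are large secreted proteins. SLIT2 (chromosome 4, 20255235 to 20620788) had FPKM values of 1.55, 0.676 and 6.05 on days 0, 3 and 5. It fell 2.30-fold by day 3 (q = 0.0191 in the authors' deposited table) and then rose 8.95-fold (log2 3.16 ± 0.54, at the smallest q). SLIT3 was low at first, at 0.189 and 0.248, and reached 2.00 on day 5, an 8.07-fold rise from day 3 (log2 3.01 ± 0.58). SLIT1 went from 0.211 to 1.33 and 2.18 and was not called. Its implied standard error for the first step was 2.06 on the log2 scale, against 0.57 for SLIT2, and it shares its interval with ARHGAP19 and the read-through gene ARHGAP19-SLIT1. SLIT2 and SLIT3 host the microRNA genes MIR218-1 and MIR218-2, both listed at 0.

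The SLIT receptors summed to 24.7, 23.6 and 24.2, most of it from ROBO1. ROBO1 was at an FPKM of 21.8, 17.9 and 20.3 without a call (log2 between -0.28 and 0.18, with an implied standard error of at most 0.41). ROBO2, its neighbour 947 kb away on chromosome 3, was at 0.896, 0.364 and 0.992, and its fall by day 3 and rise by day 5 were called. ROBO3, a ROBO that lowers the response to SLIT in commissural axons, was at 2.00, 5.35 and 2.94 and rose 2.67-fold by day 3 (log2 1.42 ± 0.38, q = 0.00157 in the authors' deposited table). ROBO4, the endothelial member that lies 2743 bases from ROBO3, was at 0.00433, 0.00629 and a listed 0.

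Netrin ligands were low. NTN1 (chromosome 17, 8924859 to 9147317), the secreted cue of the ventral midline, had an FPKM of 2.13, 5.05 and 1.38. It rose 2.37-fold by day 3 (log2 1.24 ± 0.36, q = 0.00363 in the authors' deposited table) and fell 3.66-fold by day 5 (log2 -1.87 ± 0.43). NTNG2, a membrane-anchored netrin G, was also highest on day 3, at 0.582, 3.10 and 0.703, with a 5.33-fold rise and a 4.41-fold fall, both at the smallest q. NTNG1 went from 0.488 to 0.0678 and 0.138 and fell 7.20-fold by day 3 (q = 0.00283 in the authors' deposited table). NTN4 reached 0.908 on day 5 from 0.296 on day 0, with a call for that span. NTN3 (0.192, 0.387 and 0.419) and NTN5 (0.341, 0.186 and 0.162, in 1 interval with CA11) were not called.

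UNC5A, UNC5B and UNC5D, the netrin receptors tested between day 0 and day 3, all fell in that step, and UNC5C, UNC5D and DCC rose from day 3 to day 5. UNC5A was at an FPKM of 3.31, 0.399 and 0.324, and UNC5B at 13.0, 4.15 and 4.04. UNC5A fell 8.29-fold (log2 -3.05 ± 0.57) and UNC5B 3.14-fold (log2 -1.65 ± 0.35) by day 3, at the smallest q, and neither was called from day 3 to day 5. UNC5B shares its interval with LOC728978, at 4.43, 1.97 and 1.06. UNC5C (chromosome 4, 96083656 to 96470361) was at 0.137 and 0.194 before it reached 2.36 on day 5, a 12.2-fold rise (log2 3.61 ± 0.59). The ratio of UNC5C to UNC5A was 0.0414 on day 0 and 7.30 on day 5. UNC5D was lowest on day 3, at 10.7, 5.19 and 14.8. It fell 2.05-fold at first (log2 -1.04 ± 0.43, q = 0.002 in the authors' deposited table) and rose 2.85-fold by day 5 (log2 1.51 ± 0.42). DCC, the attractive receptor, had 0.125, 0.0912 and 0.942 and rose 10.3-fold from day 3 to day 5 (log2 3.37 ± 0.67), still below an FPKM of 1.

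FLRT proteins are adhesion molecules with leucine-rich repeats that bind UNC5 receptors and latrophilins. FLRT3, whose start window has few CpG dinucleotides, had FPKM values of 0.578, 25.9 and 22.4 on days 0, 3 and 5. It rose 44.7-fold by day 3 (log2 5.48 ± 0.73), the largest change of any member in any comparison, and the later step was not called (log2 -0.21 ± 0.52). In the table FLRT3 is listed with the merged interval of MACROD2, the gene it lies within (chromosome 20, 13976146 to 16033841), and MACROD2 itself was at 0.294, 1.90 and 0.812. FLRT2 (0.831, 0.839 and 1.37) and FLRT1 (0.254, 0.227 and 0.604, in 1 interval with MACROD1) were not called. FLRT3 exceeded FLRT2 30.8-fold on day 3 and 16.4-fold on day 5, but not on day 0, when the ratio was 0.696.

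**Figure D3:**
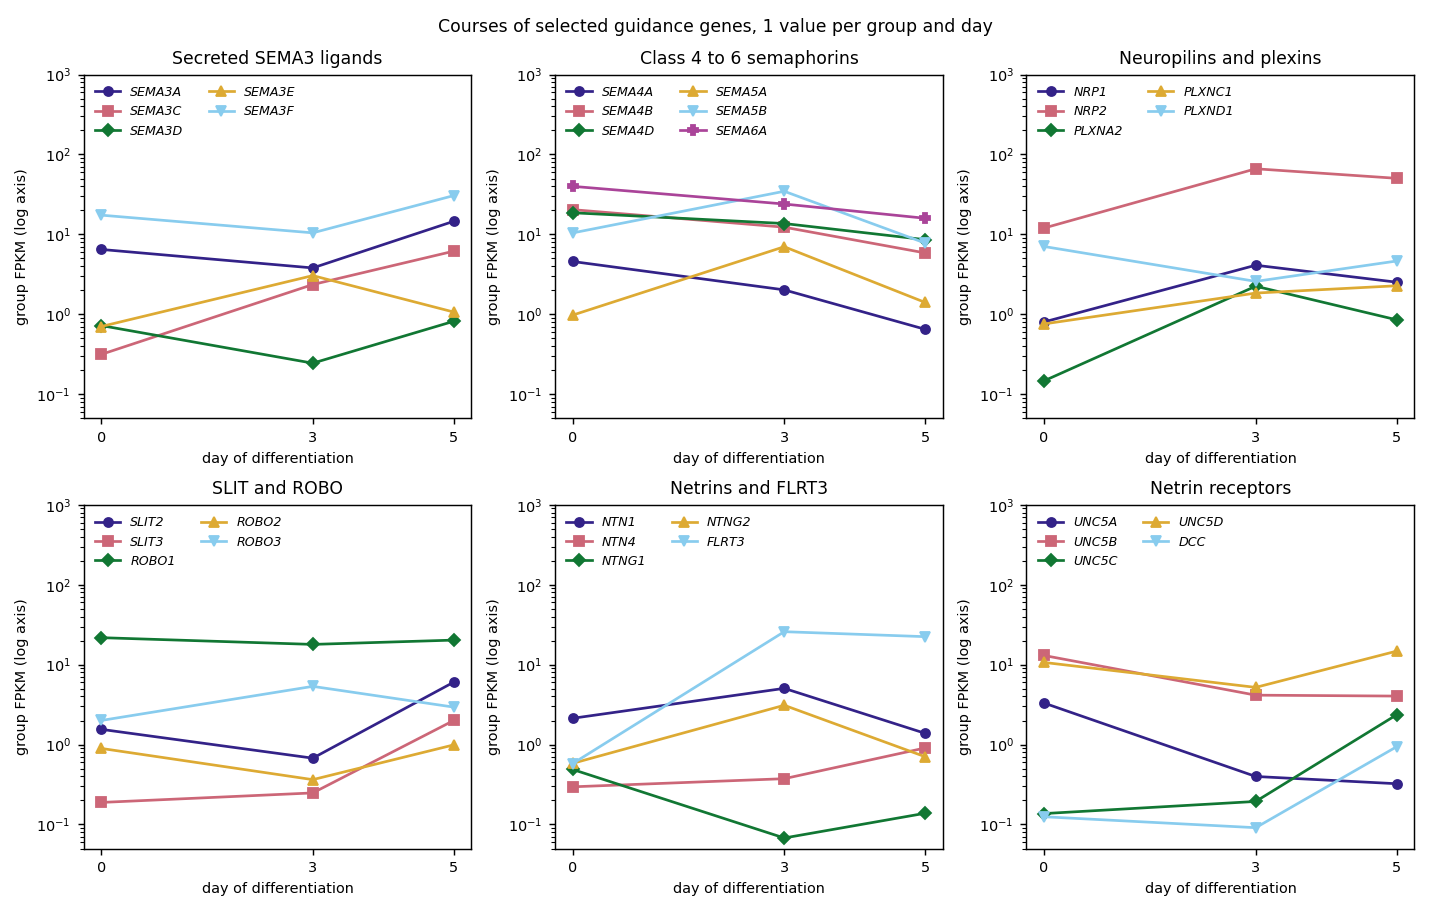
Group FPKM (log axis) on days 0, 3 and 5 for 31 members in 6 panels, 1 value per group and day, with lines joining the days as a guide. SEMA5A, SEMA5B, NTN1 and NTNG2 are highest on day 3, SLIT2, SLIT3, UNC5C and DCC are highest on day 5, and FLRT3 is high on days 3 and 5.

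**Figure D4:**
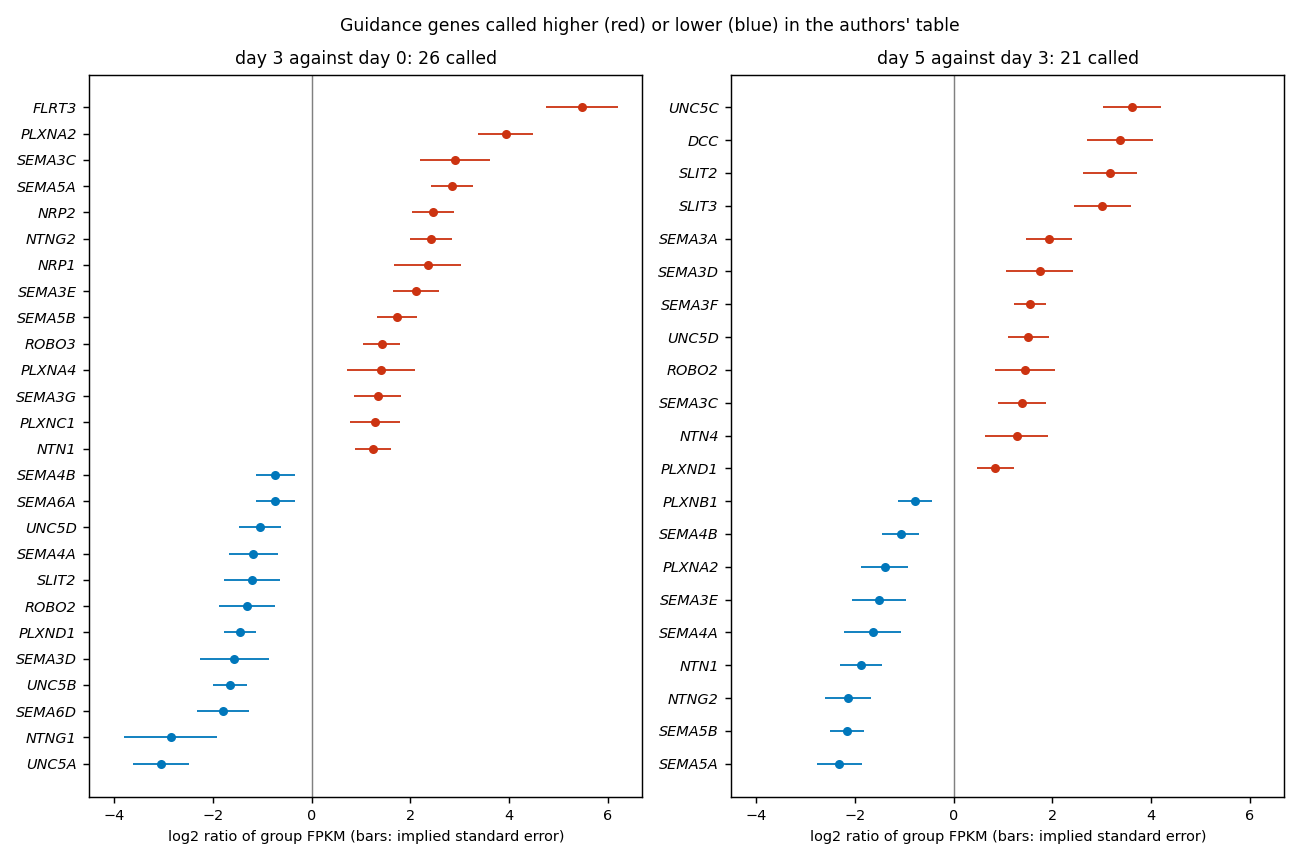
Log2 ratio of group FPKM for the 26 members called between day 0 and day 3 (left) and the 21 called between day 3 and day 5 (right), red for higher and blue for lower, with bars of 1 implied standard error. FLRT3 (5.48) and UNC5A (-3.05) mark the ends of the first step, and UNC5C (3.61) and SEMA5A (-2.32) those of the second.

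Other genes of the guidance pathways, a list of 62 co-receptors, effectors and partners of which 61 were found, were counted in the same way. By day 3, 15 were higher and 7 lower of 56 tested, or 39.3%, against 20.6% of all tested genes. By direction this was 26.8% higher and 12.5% lower, against 8.96% and 11.6%, so the share that fell was near the background. From day 3 to day 5 there were 3 higher (5.26%) and 9 lower (15.8%) of 57, against 5.93% and 6.68% of all tested genes, so the share that rose was near the background. From day 0 to day 5 there were 15 higher (26.3%) and 10 lower (17.5%) of 57, or 43.9% in all, against 27.0% of all tested genes (12.2% higher and 14.7% lower). The axonal adhesion proteins CNTN2 and NRCAM rose by day 3, CNTN2 from an FPKM of 0.906 to 38.9 and NRCAM, a semaphorin co-receptor, from 1.33 to 18.4. CNTN2 then fell 5.05-fold to 7.70 by day 5 (log2 -2.34 ± 0.41), while NRCAM stood at 15.1. DPYSL5, a relative of the semaphorin mediator CRMP2, rose from 5.60 to 52.2 and stood at 62.1 on day 5. LRRC4B, of the netrin G ligand family, rose from 7.63 to 42.4, and KDR, the VEGF receptor that pairs with neuropilins, fell from 22.2 to 3.14. The latrophilin LPHN3, a receptor of FLRT3, went from 2.40 through 9.39 to 11.1 and was higher on day 5 than on day 0.

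RGMA and RGMB, which share the receptor NEO1 with netrins, moved as well. RGMA was at 26.0, 123.2 and 24.0 and RGMB at 5.96, 63.6 and 20.7, and both fell from day 3 to day 5. Their receptor NEO1, a relative of DCC that also binds netrins, was at 11.6, 15.3 and 34.4 and rose from day 3 to day 5. The effectors DPYSL3 (207, 278 and 69.9) and CRMP1 (68.1, 89.6 and 40.0) fell in that step.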

How the data were processed

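The submitters' processing notes name TopHat2 2.0.10, Cuffdiff 2.1.1 and the build hg19. For the annotation and strand setting, the sources used here say nothing. Per the file headers, the authors deposited 1 FPKM value per gene and group, the Cuffdiff test statistic (used as a score) and p-values and q-values for 3 comparisons, 69852 rows in all. Recomputed Benjamini-Hochberg values over all 48572 tested rows match the deposited q to within 5.25e-07. Calls use q below 0.05, with the direction from FPKM. Folds and log2 ratios were computed from FPKM, and medians from log2 of FPKM plus 1, which understates changes of weak genes. Locus starts were taken to be zero-based and printed one-based. Of 19793 genes found in RefSeq by symbol, widths equal the gene length that way for 1901 and otherwise for 253. The rest match neither way. For 10 members the table gives the same interval as for another gene, so reads may be shared.

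The members and lists were chosen with earlier results of these data known. Full values were given to members called at least once with an FPKM of at least 5, and of the other pathway genes up to 6 per comparison with the largest change were named. DRAXIN was the pathway symbol not found. Alternatives were a q of 0.01, a normal p, another adjustment, pseudocounts of 0.1 and 0.5, a filter at an FPKM of 1 and 2 scalings. The adjustment was tested on simulated data. Python 3.11.15, pandas 2.3.3, numpy 2.4.6, scipy 1.17.1 and matplotlib 3.10.9 were used.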

Additional observations from a re-analysis of the deposited data

How the results depend on the processing

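No paired analysis was possible because the table holds 1 value per group, and for the same reason leaving out a library could not be run. The number of members called lower between day 0 and day 3 was 12 as deposited, 7 at a q below 0.01 and 5 under a normal p of the test statistic. The median log2 ratio of the members between day 3 and day 5 was -0.04 and turned to 0.0188 when centred on the 12675 genes named above. Between day 0 and day 3 that median ranged from 0.02 to 0.41 over the alternatives, and between day 0 and day 5 from 0.28 to 0.43. The other counts of members and pathway genes stayed within 1.5 times under each alternative. Of 67 calls of single members, 57 held at a q below 0.01, 48 under the normal p and 65 with p adjusted per comparison. No called member changed direction under the 2 scalings. A pseudocount is added to both values alike and cannot change a direction, so it does not bear on this. Leaving out small RNA genes moved the median log2 ratio of genes that reached an FPKM of 1 on both days compared. The shift was 0.07, 0.10 and 0.17 for day 3 against day 0, day 5 against day 3 and day 5 against day 0. The counts of members by day of highest value, tried under alternatives chosen after seeing the data, were 11, 18 and 12 among members at an FPKM of 1 or more and 11, 20 and 21 after that rescaling. Depth per library is unknown, so weak members such as ROBO4 and NTN5 cannot be read further.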
